A study of Mus musculus with 8 samples.

Results

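The genes described here are the collagens, the chains of the triple-helical proteins that make up most of the extracellular matrix. They were chosen by name: every gene whose single symbol on the array platform reads Col, a type number, a and a chain number, in both value tables. This gave 42 genes, of 18193 with 1 symbol in the Twist1 table and 17084 in the Twist1/p53 table. Expression was measured on 8 microarrays of RNA from mouse skin tumours raised by DMBA, a carcinogen, followed by TPA, which promotes tumours. The 4 groups held 2 arrays each, and tumour-bearing mice of every group, controls included, received tamoxifen as 5 doses of 2 mg. Twist1 deletion tumours came from K14CreER:Twist1fl/fl mice and their controls from Twist1fl/fl mice. Twist1/p53 deletion tumours came from K14CreER:Twist1fl/fl:p53fl/fl mice and their controls from Twist1fl/fl:p53fl/fl mice, so the controls carried the floxed alleles without Cre. The keratin 14 promoter confines CreER to basal epithelial cells and their descendants, and the mice were littermates of mixed background. Live Epcam+ cells lacking lineage markers were sorted, with antibodies to CD45, CD31 and CD140a (Pdgfra), so the cells that make most dermal collagen were meant to be removed. Comparisons were made inside one table, deletion against matching controls, because the tables come from different array types and were normalized separately. Levels are log2 intensities and log2 changes are deletion minus control. A level of one gene cannot be set against that of another, since each is read by its own probes.

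Collagen chains share a repeat of glycine followed by any pair of residues, and 3 chains wind into a helix inside the secretory pathway before they are cut, assembled and cross-linked outside the cell. Fibril-forming collagens (types I, II, III, V, XI, XXIV and XXVII) build the fibres of dermis, bone and cartilage, and collagen VI makes beaded filaments around cells. Keratinocytes lie on a basement membrane whose network is collagen IV, anchored to the dermis by collagen VII fibrils, and they hold on to it in part through collagen XVII, a transmembrane collagen of the hemidesmosome. In normal skin the fibrillar and type VI chains are made chiefly by fibroblasts, and types VII and XVII chiefly by keratinocytes. Twist1 is a basic helix-loop-helix factor that binds E-boxes, short DNA motifs of the form CANNTG, and can switch on mesenchymal genes in epithelial cells.

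Several facts of the arrays stand beside every result. Twist1 read 5.20 and 7.18 in the Twist1 controls against 3.81 and 3.90 in the deletion arrays, and for the Twist1/p53 arrays 6.15 and 6.04 versus 4.82 and 5.01. Xist, expressed a transcript of the inactive X in females, gave 10.89 to 11.88 on the 4 control arrays and 3.66 to 6.98 on the 4 deletion arrays, so sex and deletion cannot be told apart, and the same holds for Cre. The 3' probe sets of Gapdh, a sign of RNA integrity, read higher than its 5' ones by 0.04 and 0.03 in Twist1 controls and by 0.22 and 0.30 after Twist1 deletion. For the Twist1/p53 arrays these differences lay between -0.04 and 0.06. The same difference for Actb was 0.63 and 0.63 in Twist1 controls against 0.95 and 0.78 after deletion. On the Twist1/p53 arrays it lay between -0.30 and -0.18. The poly-A spike-in probe sets averaged 8.22 and 9.14 in Twist1 controls against 9.49 and 10.53 after deletion, and 3.73 to 3.77 on the Twist1/p53 arrays. Epcam, the gene of the sorting marker, read 10.38 and 10.54 in Twist1 controls versus 10.82 and 11.62 after deletion, and on the Twist1/p53 arrays 10.42 and 10.46 versus 10.95 and 11.01. Nothing in the labels says that the arrays of a group came from separate mice, so p-values measure the spread between these arrays.

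Col6a1, Col6a2 and Col5a2 fell after deletion of Twist1 together with p53, and no collagen gene passed the test after deletion of Twist1 alone. The test was limma with an intensity trend, fitted on all genes, and a gene was called at a Benjamini-Hochberg adjusted p under 0.05. In the Twist1/p53 comparison 40 of the 42 members passed the filter on low values (Col6a5 and Col8a2 did not), 3 fell and none rose, and 12 had an unadjusted p under 0.05. Over all 14936 genes tested, 1.63% were called (0.562% fell and 1.07% rose), and 20.4% had an unadjusted p under 0.05. In the Twist1 comparison 37 members passed the filter, all but Col6a5, Col11a1, Col19a1, Col24a1 and Col26a1, and none was called by limma, against 0.0314% of 15944 genes (0.00627% fell and 0.0251% rose). At an unadjusted p under 0.05 there was 1 such member (Col4a4), where 8.73% of all tested genes were below that value.

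The upstream sequences of Col6a1 and Col6a2, neighbouring genes on chromosome 10 that fell together, are shown with that of Col3a1, the neighbour of Col5a2 on chromosome 1. Col5a2 and Col1a1 have no entry in the promoter table used. Each run is the 250 bases before the annotated start in RefSeq on build GRCm38.p6, read 5' to 3' on the gene's strand, with every CANNTG in capitals. The windows lie at chr10:76726045-76726294 (Col6a1, minus strand), chr10:76623631-76623880 (Col6a2, minus strand) and chr1:45311288-45311537 (Col3a1, plus strand).
Col6a1: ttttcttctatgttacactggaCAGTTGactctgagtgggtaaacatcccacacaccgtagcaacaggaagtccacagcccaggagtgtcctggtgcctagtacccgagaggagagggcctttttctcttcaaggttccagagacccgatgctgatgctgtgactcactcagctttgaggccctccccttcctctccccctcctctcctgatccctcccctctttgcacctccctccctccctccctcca
Col6a2: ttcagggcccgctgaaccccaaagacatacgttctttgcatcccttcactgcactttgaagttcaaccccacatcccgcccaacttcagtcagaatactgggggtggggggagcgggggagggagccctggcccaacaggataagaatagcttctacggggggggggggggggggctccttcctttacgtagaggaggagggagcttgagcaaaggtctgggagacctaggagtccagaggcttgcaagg
Col3a1: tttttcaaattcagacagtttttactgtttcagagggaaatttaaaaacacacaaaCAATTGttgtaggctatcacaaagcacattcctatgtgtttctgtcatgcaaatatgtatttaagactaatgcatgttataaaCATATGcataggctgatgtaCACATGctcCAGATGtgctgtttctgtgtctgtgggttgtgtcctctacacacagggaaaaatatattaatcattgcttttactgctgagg

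These letters differ between the 3 windows. CANNTG, which reads alike on both strands, occurs 1 time in the Col6a1 window, 4 times in that of Col3a1 and 0 times in that of Col6a2. It is found in 66.2% of all 32851 RefSeq windows of this length and in 18 of the 36 windows of the 33 collagen genes that have one. CAGATG or its reverse complement CATCTG, a form of CANNTG, occurs in 3 of the 36 windows (Col3a1, Col4a5 and Col9a1), against 14.4% of all windows. CATATG, another such form, occurs in 1 of them (Col3a1), against 3.46%. A match is a description of the letters and not a binding site.

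**Figure D1:**
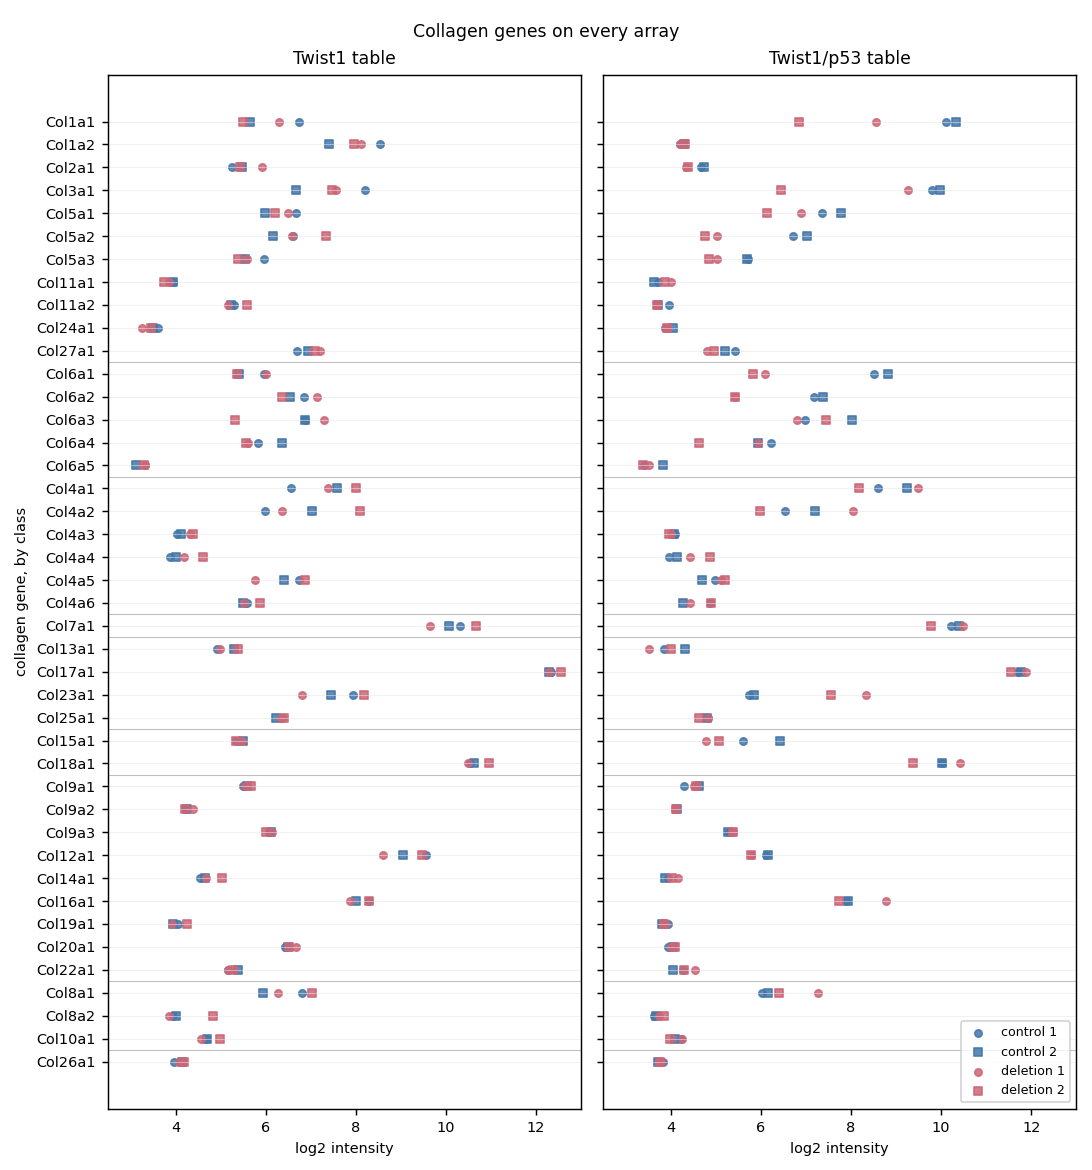
Log2 intensity (horizontal axis) of each of the 42 collagen genes on every array, 1 probe set per gene, in the Twist1 table (left) and the Twist1/p53 table (right). Blue points are controls, red points deletion arrays, circles replicate 1 and squares replicate 2, and thin lines separate the classes. Points are comparable only within a row of a panel. On the right the red points of Col6a1, Col6a2 and Col5a2 lie apart from the blue ones, while on the left the colours of these genes mix.

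Collagen VI, the beaded filament collagen, is assembled from 1 chain each of Col6a1, Col6a2 and a further chain, usually Col6a3. In the Twist1/p53 table Col6a1 read 8.52 and 8.82 in the controls, versus 6.10 and 5.83 after deletion. It fell 6.51-fold (log2 change -2.70, SE 0.19, n = 2 per group, limma adjusted p = 0.017). Col6a2 read 7.17 and 7.39 against 5.43 and 5.42, a 3.62-fold fall (-1.86, SE 0.16, adjusted p = 0.022). In both genes the 2 deletion arrays agreed closely and lay far below both controls. The other probe set of Col6a2 went from 7.45 and 7.64 to 5.16 and 4.93, a change of -2.50.

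The partner chains did not pass the test. Col6a3 read 6.97 and 8.02 against 6.80 and 7.44, with overlapping groups (-0.38, SE 0.42, adjusted p = 0.67). Its 95% confidence interval, from -1.49 to 0.74, does not reach the change of Col6a1. Col6a4, an alternative to Col6a3, read 6.24 and 5.94 against 5.93 and 4.62 (-0.81, SE 0.46, adjusted p = 0.40), and the difference rested mainly on deletion array 2. Col6a5, a further alternative that lay under the filter, read 3.39 to 3.84 on these arrays.

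The fibril-forming class had 9 of its 11 members lower and 2 higher in Twist1/p53 deletion tumours, and the median log2 change was -0.43, against -0.01 over all genes. The higher ones were Col11a1 (0.26) and Col1a2 (0.002), and other probe sets of Col1a2, described below, were lower. Groups did not overlap for 8 of the lower members and 1 of the higher ones, where 27.1% of all genes were lower and 24.3% higher in that way. Only Col5a2 passed. It encodes a collagen V chain, which co-assembles with collagen I and limits fibril width, and it read 6.71 and 7.03 against 5.02 and 4.75. That is a 3.97-fold fall (-1.99, SE 0.19, adjusted p = 0.029). Its other probe set read 3.94 and 4.59 against 3.27 and 3.46.

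The remaining collagen V chains were lower without passing. Col5a1, the partner chain of Col5a2, read 7.35 and 7.77 against 6.89 and 6.14 (-1.05, SE 0.32, adjusted p = 0.18), and its 3 probe sets differed by -1.05, -1.03 and -0.82. Col5a3 read 5.71 and 5.69 against 5.03 and 4.85 (-0.76, SE 0.13, adjusted p = 0.080). In both genes the deletion arrays lay below the controls.

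The major fibrillar chains were also lower, with deletion arrays that disagreed with each other. Col1a1, the principal collagen I chain, read 10.10 and 10.33 against 8.55 and 6.84 (-2.52, SE 0.58, adjusted p = 0.12). Col3a1, the collagen of fine reticular fibres, read 9.81 and 9.96 against 9.26 and 6.44 (-2.04, SE 0.93, adjusted p = 0.31). The deletion arrays were 1.71 and 2.83 apart in these genes, whereas the controls differed by 0.23 and 0.16. Deletion array 2 was the lower one in both.

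Col1a2, the partner chain of Col1a1, depended on which probe set stood for it. The only probe set that the annotation of the Twist1/p53 array assigns to it read 4.21 and 4.30 against 4.21 and 4.31, a change of 0.002 (SE 0.094). The control probe sets for nonspecific hybridisation averaged 4.18 and 4.27 in controls and 4.48 and 4.40 after deletion. Of these control probe sets, the 8 with 18 or more G and C bases averaged 5.95 to 6.58. The mean of all is therefore no floor for a single probe set. At the level of this Col1a2 probe set a fall may be hidden, so the 0.002 does not show an unchanged gene. Another 14 probe sets of the Twist1/p53 array, unnamed there, carry identifiers that the other array type assigns to collagen genes. This naming was chosen after seeing the data, and 99.3% of the 28132 probe sets named on both types had the same symbol. Of these, 1 for Col1a2 read 9.97 and 10.01 against 8.83 and 6.89 and a further one 9.36 and 9.58 against 7.72 and 5.64. With the former, Col1a2 differed by -2.13 (SE 0.64, adjusted p = 0.18). An additional Col1a1 probe set read 11.03 and 11.16 against 9.38 and 8.32 (-2.25, SE 0.36, adjusted p = 0.068). No further collagen gene passed under this naming, and the 3 called ones still did. Here 0.644% of 16140 genes fell.

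**Figure D2:**
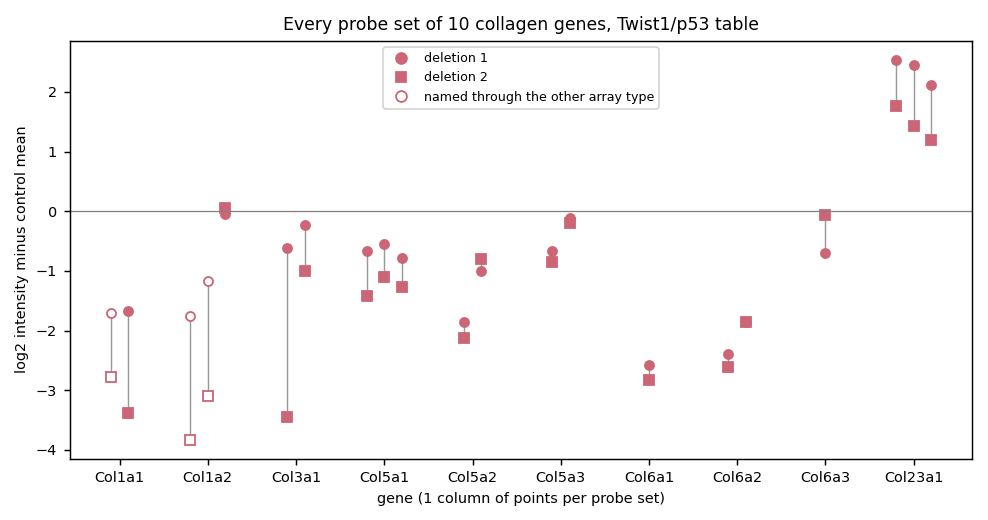
Log2 intensity of each Twist1/p53 deletion array minus the mean of the controls (vertical axis) for every probe set of 10 collagen genes (horizontal axis). Circles are deletion array 1, squares deletion array 2, a grey line joins the arrays of a probe set, and open symbols mark probe sets named through the other array type. The arrays lie close together for Col6a1, Col6a2 and Col5a2 and far apart for Col1a1, Col1a2 and Col3a1, and 1 of 3 Col1a2 probe sets stays near 0.

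The minor fibrillar chains moved less. Col2a1, the collagen of cartilage, read 4.67 and 4.74 against 4.34 and 4.38 (-0.35, adjusted p = 0.16) and Col27a1, a long fibrillar chain of cartilage, 5.41 and 5.20 against 4.80 and 4.97 (-0.43, adjusted p = 0.21). The other Col27a1 probe set differed by -0.02, with overlapping groups. Col11a1 was higher, with 3.72 and 3.63 against 4.01 and 3.87 (0.26, adjusted p = 0.20). Col11a2 (-0.15) and Col24a1 (-0.04) stood close to their controls. Col2a1, Col11a1, Col11a2 and Col24a1 all read under 5. On these arrays the 23 probe sets for nonspecific hybridisation had mean levels of 4.18 and 4.27 (controls) and 4.48 and 4.40 (deletion), and whether such low members carry signal was not tested. Of the 42 members, 20 had a mean level under 5 there.

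Of the transmembrane collagens, Col23a1 had the highest log2 change of all members. Its product is a transmembrane collagen that can be shed from the cell surface. It read 5.74 and 5.85 in the Twist1/p53 controls, versus 8.34 and 7.56 after deletion, 4.44 times the control level (2.15, SE 0.29, adjusted p = 0.056), which just missed the threshold. All 3 of its probe sets were higher, by 2.15, 1.94 and 1.65, with no overlap between groups. Means higher by 1 or more were seen in 2.56% of all genes, and Col23a1 was the only such member.

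The epidermal collagens stayed near their controls. Col17a1 read 11.70 and 11.77 against 11.89 and 11.54 (-0.02, SE 0.13, 95% interval -0.35 to 0.31). Col7a1 read 10.22 and 10.39 against 10.49 and 9.78 (-0.17, SE 0.25, interval -0.83 to 0.49). Deletion array 2 lay below the controls in both genes and deletion array 1 above them. Col13a1, a transmembrane collagen of cell junctions, read 3.85 and 4.31 against 3.51 and 4.01 (-0.32, adjusted p = 0.51), and Col25a1, another of this class, differed by -0.09.

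Collagen IV forms the basement membrane network, and its chains are encoded as neighbouring pairs on chromosomes 8, 1 and X. In the pair that every basement membrane contains, Col4a1 read 8.595 and 9.25 against 9.48 and 8.18 and Col4a2 read 6.53 and 7.20 against 8.05 and 5.99 in the Twist1/p53 table. In both genes deletion array 1 lay above both controls and array 2 below them, and the changes were -0.09 (SE 0.49) and 0.16 (SE 0.72). Col4a4, a chain best known from kidney, read 3.97 and 4.15 against 4.43 and 4.87 (0.60, SE 0.18, adjusted p = 0.18). The other probe set of Col4a4 was higher by 0.08, and 1 named through the other array type by 0.13, where the groups overlapped. All levels of Col4a4 lay under 5, and whether such low members carry signal was not tested. Col4a3, its neighbour, differed by -0.10.

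The X-linked chains belong to the sheath of epithelial basement membranes. Col4a5 read 4.97 and 4.69 against 5.12 and 5.21 (0.33, SE 0.15, adjusted p = 0.295), and Col4a6 read 4.88 and 4.26 against 4.42 and 4.89 (0.08, SE 0.27). Both lie on the chromosome whose Xist signal separated the groups. Groups overlapped for Col4a6 and not for Col4a5.

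The multiplexins are collagens of the basement membrane zone whose cut ends include endostatin. Col15a1 read 5.595 and 6.41 against 4.78 and 5.07 (-1.08, SE 0.31, adjusted p = 0.17). Col18a1 read 10.02 and 10.02 against 10.43 and 9.38 (-0.12, SE 0.35, adjusted p = 0.89), so that its deletion arrays lay on either side of the controls. The groups did not overlap for Col15a1.

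No collagen that decorates fibrils, and no short-chain one, passed the test. Col12a1 read 6.11 and 6.16 against 5.79 and 5.79 (-0.35, adjusted p = 0.25), and its 3 probe sets named through the other array type differed by -0.20, 0.06 and 0.08. Col14a1 read 3.93 and 3.88 against 4.17 and 4.02 (0.19, adjusted p = 0.34). Col16a1 read 7.90 and 7.94 against 8.78 and 7.74 (0.34, adjusted p = 0.66), with 1 deletion array above and 1 below. Col8a1, a short-chain collagen of vessel walls and corneal membrane, read 6.03 and 6.15 against 7.26 and 6.39 (0.74, SE 0.32, adjusted p = 0.29). Of the 9 fibril-associated members, 6 were higher and 3 lower, between -0.35 and 0.34.

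**Figure D3:**
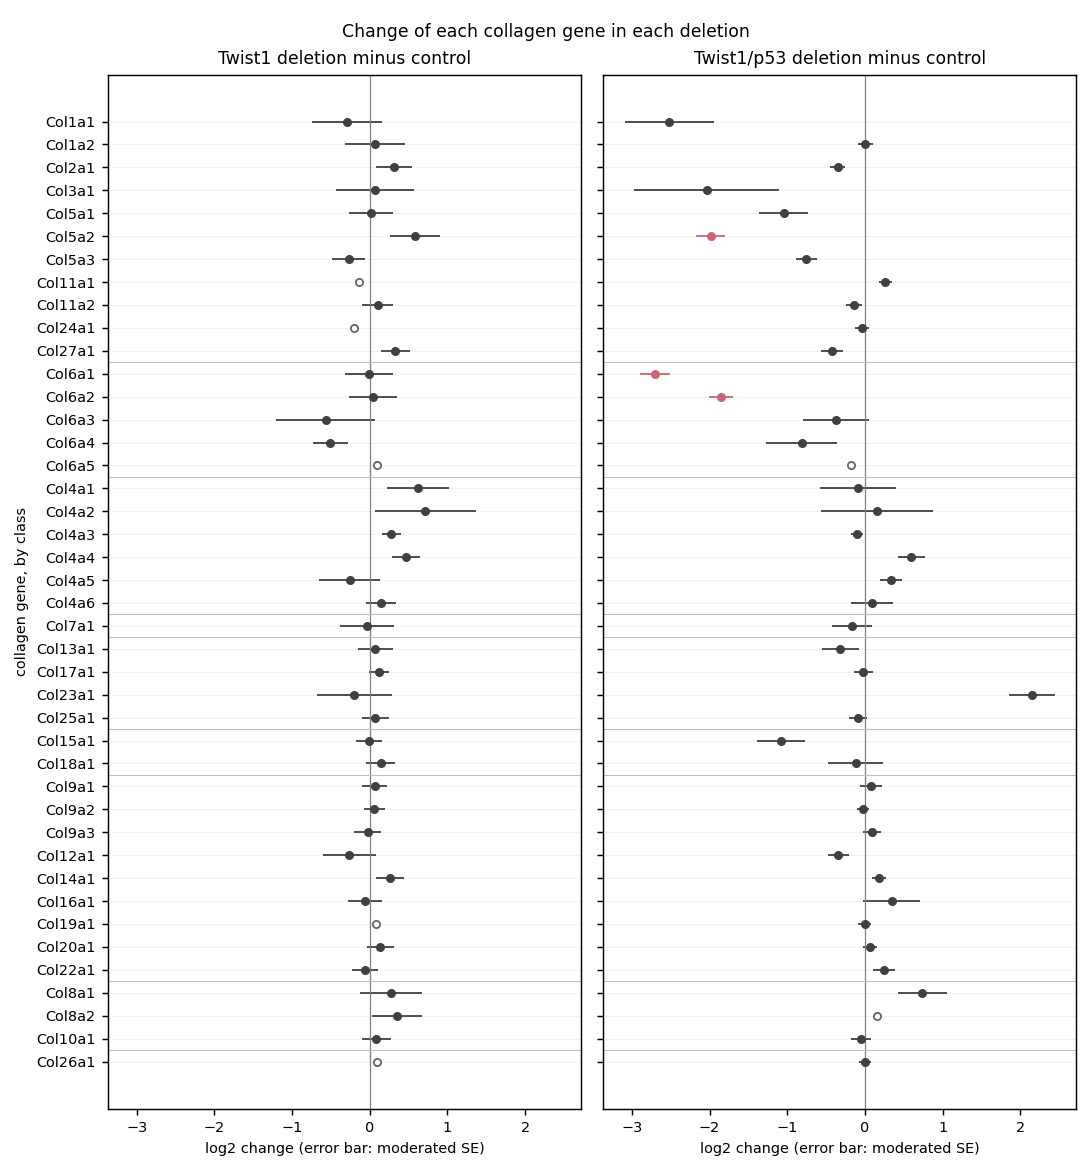
Log2 change, deletion minus control, of each collagen gene (vertical axis, by class) in the Twist1 comparison (left) and the Twist1/p53 comparison (right), with moderated standard errors. Red marks the called genes, and open circles without an error bar are genes under the filter, which were not tested. The Twist1 changes lie between -0.57 and 0.72 and the Twist1/p53 changes between -2.70 and 2.15.

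Over all 42 collagen genes the Twist1/p53 table had 26 lower and 16 higher means, with a median change of -0.07 against -0.01 over all 17084 genes. Groups did not overlap for 24 of the 42, 15 lower and 9 higher, while 51.5% of all genes did not overlap. Means lower by 1 or more were found for 7 members, against 1.44% of all genes. These are Col6a1, Col1a1, Col3a1, Col5a2, Col6a2, Col15a1 and Col5a1, all members of the fibrillar, beaded filament or multiplexin classes. A further 30 of the 42 changed by under 0.5 in either direction. Col1a2 is counted in these totals by its change of 0.002. Its probe sets named through the other array type differed by -2.13 and -2.79.

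**Figure D4:**
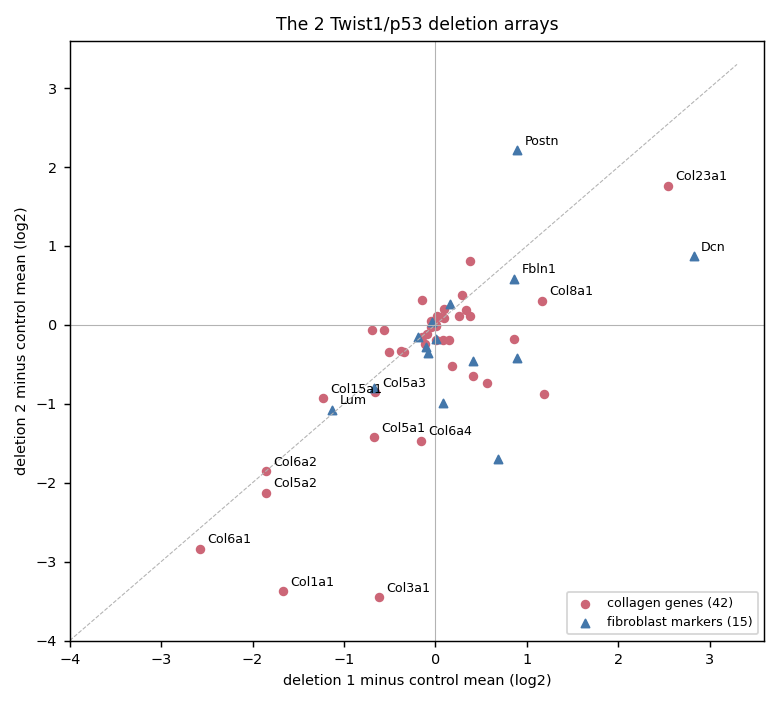
Each Twist1/p53 deletion array minus the control mean, array 1 on the horizontal and array 2 on the vertical axis (log2), for the 42 collagen genes (red circles) and 15 fibroblast markers that are no collagens (blue triangles). On the dashed line the arrays agree. Col6a1, Col6a2 and Col5a2 lie near it, Col1a1 and Col3a1 far below it, and the fibroblast markers spread from Lum at the lower left to Dcn and Postn at the upper right.

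The gap between the Twist1/p53 deletion arrays exceeded that between the controls in 23 of the 42 members, and in the Twist1 table in 27. Over all genes tested, the difference between the arrays of a pair had an SD of 0.45 for the Twist1/p53 deletion and 0.19 for its controls, and of 0.50 and 0.33 in the Twist1 table. Array 2 of the Twist1/p53 deletion read below array 1 in 27 members. The widest gaps were 2.83 in Col3a1, 2.06 in Col4a2, 1.71 in Col1a1, 1.31 in Col6a4 and 1.30 in Col4a1. Over all members, array 1 had a median of -0.01 and array 2 of -0.17 relative to the control mean.

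Leaving out 1 array shows the size of the changes and does not test the calls. Without control 1, Col6a1 stood at -2.86, Col6a2 at -1.96 and Col5a2 at -2.15. Without control 2 they stood at -2.55, -1.75 and -1.83. Without deletion array 1 they stood at -2.83, -1.86 and -2.12, and without deletion array 2 at -2.57, -1.85 and -1.85. With 1 array left in a group, the spread comes from the other pair alone. The array difference had an SD of 0.45 in the deletion pair and 0.19 in the control pair. The number of calls in such fits therefore depends on which array is left out.

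Markers of other cell types moved in both directions beside these changes, and in bulk RNA fewer cells of a type and less RNA per cell cannot be told apart. Of 15 fibroblast markers that are no collagens, 6 were higher and 9 lower in the Twist1/p53 table, with a median of -0.08. Their mean level was 5.47 and 5.598 in the controls, versus 5.84 and 5.37 after deletion. Of 12 tested, 5 had an unadjusted limma p under 0.05, against 20.4% of all genes tested. In the list 1 gene fell and 0 rose, against 0.562% and 1.07% of all genes tested. It was the small matrix proteoglycan gene Lum, which went from 4.71 and 4.94 to 3.69 and 3.75 (-1.10, SE 0.11, adjusted p = 0.032). Dcn, the related collagen-binding proteoglycan, read 5.04 and 4.92 against 7.81 and 5.85, and the matricellular gene Postn 7.45 and 7.96 against 8.60 and 9.92. Pdgfra, the gene of the sorted-out CD140a, lay under the filter at 3.62 and 3.83 against 3.54 and 3.56. Vim, an intermediate filament of mesenchymal cells, read 8.02 and 8.74 against 9.07 and 6.68, with deletion array 1 above both controls and array 2 below them.

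Of 8 measured pericyte and smooth muscle markers 2 were higher and 6 lower, with a median of -0.17. All 8 were tested, with 1 fall and 0 rises, against 0.562% and 1.07% of all genes tested. An unadjusted limma p under 0.05 was seen in 4 of them, against 20.4% of all genes tested. In that list Rgs5, a regulator of G protein signalling found in pericytes, fell from 7.86 and 8.09 to 4.59 and 4.98 (-3.19, SE 0.20, adjusted p = 0.014), and Acta2, smooth muscle actin, read 8.41 and 8.27 against 9.40 and 8.77. The mean level of the list was 6.11 and 6.16 in the controls, versus 5.68 and 5.65 after deletion. Endothelial markers had a median of -0.09 and mean levels of 4.42 and 4.67 against 4.40 and 4.35. Melanocyte markers had a median of 0.08, leukocyte markers 0.06 with 1 rise (Cd74, adjusted p = 0.043), and epithelial markers 0.27. An unadjusted limma p under 0.05 was seen in 6 of 13 leukocyte and 1 of 8 endothelial markers tested. The same held for 0 of 5 melanocyte and 2 of 9 epithelial markers tested. The part of other cells in the collagen changes was not tested.

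Deletion of Twist1 alone gave no called collagen gene. Of the 42 members 27 had higher and 15 lower means, with a median of 0.07 against -0.01 over all 18193 genes. Deletion and control arrays were fully separated in 8 of the 42 (5 higher and 3 lower), where 40.2% of all genes were (18.1% higher and 22.1% lower). None differed by 1 or more in either direction (all genes: 1.06% higher and 0.693% lower), and 37 differed by less than 0.5.

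The genes that fell in the other deletion gave no call here. Col6a1 read 5.97 and 5.42 in the Twist1 controls, versus 6.01 and 5.36 after deletion (-0.01, SE 0.31, 95% interval -0.80 to 0.78). Col6a2 read 6.85 and 6.55 against 7.13 and 6.35 (0.04, SE 0.31, interval -0.74 to 0.83). Col5a2 read 6.61 and 6.15 against 6.59 and 7.34 (0.58, SE 0.32, adjusted p = 0.65). In all 3 genes the groups overlapped.

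Col6a3 read 6.88 and 6.88 against 7.30 and 5.32, a spread of 1.98 between the deletion arrays that exceeds the difference of -0.57 (SE 0.64). Among members whose groups did not overlap, Col6a4 was the lowest, with 5.84 and 6.35 against 5.603 and 5.57 (-0.51, SE 0.23, adjusted p = 0.60). Its other probe set went the opposite way, with 4.50 and 4.59 against 4.67 and 4.90, a difference of 0.24 that also showed no overlap. In the Twist1/p53 table both Col6a4 probe sets were lower, by -0.81 and -0.20.

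The fibrillar chains varied within the Twist1 control pair. Col1a1 read 6.74 and 5.66 against 6.30 and 5.50 (-0.30, SE 0.45), Col1a2 read 8.53 and 7.41 against 8.11 and 7.96 (0.07, SE 0.38), and Col3a1 read 8.21 and 6.68 against 7.57 and 7.46 (0.07, SE 0.50). Control 1 was the higher control in each, by 1.08, 1.12 and 1.53. Col5a1 read 6.67 and 5.99 against 6.49 and 6.21 (0.02, SE 0.28). Col27a1 was higher without passing, with 6.70 and 6.94 against 7.21 and 7.09 (0.33, SE 0.18, adjusted p = 0.65). The probe set that stands for Col27a1 in the Twist1/p53 table differed by 0.05 here, with overlapping groups.

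Collagen IV chains had higher means in 5 of 6 cases after Twist1 deletion, with a median of 0.37. Col4a1 read 6.57 and 7.58 against 7.39 and 8.001 (0.62, SE 0.40, adjusted p = 0.69) and Col4a2 read 5.99 and 7.03 against 6.37 and 8.09 (0.72, SE 0.65, adjusted p = 0.77). Groups overlapped in both. Groups did not overlap for Col4a4, at 3.88 and 4.00 against 4.20 and 4.62 (0.47, SE 0.18, adjusted p = 0.57), nor for its neighbour Col4a3, at 4.03 and 4.13 against 4.33 and 4.38 (0.27, SE 0.12, adjusted p = 0.60). The filter level of this table was 4.11, so both genes read close to it. Each also had a probe set that was lower without overlap, by -0.13 for Col4a4 and by -0.12 for Col4a3, and a further one of Col4a4 was higher by 0.31. Col4a5 read 6.74 and 6.41 against 5.77 and 6.87 (-0.26, SE 0.39) and Col4a6 5.58 and 5.51 against 5.51 and 5.87 (0.14, SE 0.19). The probe set that stands for Col4a5 in the Twist1/p53 table differed by 0.23 here, with overlapping groups.

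The epidermal and remaining collagens did not pass in the Twist1 table. Col17a1 read 12.33 and 12.28 against 12.28 and 12.56 (0.12, SE 0.13, 95% interval -0.21 to 0.44), and Col7a1 read 10.32 and 10.06 against 9.64 and 10.66 (-0.04, SE 0.35, interval -0.93 to 0.85). Col18a1 read 10.54 and 10.62 against 10.49 and 10.95 (0.14, SE 0.19), and Col15a1 read 5.34 and 5.50 against 5.47 and 5.35 (-0.01, SE 0.17). Groups overlapped in these 4 genes. Col12a1 read 9.56 and 9.04 against 8.61 and 9.46 (-0.26, SE 0.34) with overlap. Another of its 4 probe sets read 7.97 and 7.93 against 6.79 and 7.46, a difference of -0.83 without overlap, and the remaining ones differed by -0.26, without overlap, and by -0.001. Col16a1 read 8.28 and 8.002 against 7.86 and 8.30 (-0.06, SE 0.22), and Col23a1 7.93 and 7.45 against 6.80 and 8.17 (-0.20, SE 0.48). Col14a1 read 4.54 and 4.66 against 4.67 and 5.04 (0.26, SE 0.18, adjusted p = 0.71) and Col20a1 6.43 and 6.49 against 6.67 and 6.52 (0.14, SE 0.17, adjusted p = 0.83), each just above the controls. The fibroblast markers of this table had a median of 0.21, with mean levels of 6.14 and 6.18 in the controls, versus 6.18 and 6.65 after deletion.

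Whether the deletions differed was tested directly over all 8 arrays, by subtracting the change seen with Twist1 alone from that seen with both genes deleted. None of the 38 members tested passed in limma, where 0.163% of 14739 genes did (0.0204% lower and 0.142% higher), and 8 had an unadjusted p under 0.05, against 10.2% of those genes. The difference was -2.69 for Col6a1 (SE 0.40, adjusted p = 0.085), -2.57 for Col5a2 (SE 0.41, adjusted p = 0.11), -1.90 for Col6a2 (SE 0.38, adjusted p = 0.17) and 2.18 for Col23a1 (SE 0.53, adjusted p = 0.25). Their 95% intervals ran from -3.64 to -1.75, from -3.54 to -1.60, from -2.78 to -1.02 and from 0.93 to 3.44. The difference of Col1a1, here read by its other probe set in the Twist1 table, was -1.92 (SE 0.72, adjusted p = 0.45) and that of Col3a1 -2.11 (SE 1.21, adjusted p = 0.62). Without Twist1 deletion array 1, Col5a2 passed (-2.95, adjusted p = 0.048), and without Twist1 deletion array 2, Col6a1 (-3.02, adjusted p = 0.031) and Col6a2 (-2.29, adjusted p = 0.029) did. Leaving out any of the other 6 arrays gave no called member, and the lowest adjusted p among members was 0.31 without Twist1/p53 control 1 and 0.44 without Twist1/p53 control 2.

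After Twist1/p53 deletion Col6a1 and Col6a2 differed by -2.70 and -1.86, and Col3a1 and Col5a2 by -2.04 and -1.99. In the Twist1 comparison the same pairs differed by -0.01 and 0.04 and by 0.07 and 0.58. Col4a4 and Col4a3, also neighbours, differed by 0.60 and -0.10 in the Twist1/p53 comparison and by 0.47 and 0.27 in the Twist1 comparison, where Col4a3 is read by another probe set. The probe set that stands for Col4a3 in the Twist1/p53 table differed by -0.12 in the Twist1 table.

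Among the enzymes and chaperones that make collagen, 1 gene rose and none fell in the Twist1/p53 comparison. Over all genes tested 1.07% rose and 0.562% fell. Of 31 measured genes of collagen synthesis and processing 18 were higher and 13 lower, and their median was 0.05. The riser was P4ha3, a prolyl hydroxylase subunit that stabilises the helix, from 3.87 and 3.87 to 4.71 and 4.90 (0.94, SE 0.11, adjusted p = 0.039). Its control levels lay just above the filter level of 3.74. They were below the means of the nonspecific probe sets, 4.18 and 4.27 in controls and 4.48 and 4.40 after deletion. Those means are no floor for a single probe set, as the 8 with 18 or more G and C bases averaged 5.95 to 6.58. Whether P4ha3 carries signal at such levels was not tested. P4ha2, another such subunit, read 6.99 and 7.01 against 8.21 and 7.80, and Serpinh1, the collagen chaperone HSP47, 9.39 and 9.54 against 10.85 and 10.14 (adjusted p = 0.13). Mia3, which loads procollagen into transport carriers, had the lowest t, at 9.18 and 9.19 against 8.76 and 8.15 (-0.73, SE 0.23, adjusted p = 0.19). For Twist1 alone 19 of 31 were higher, with a median of 0.08 and no call by limma in either direction. Of 29 tested, 1 had an unadjusted p under 0.05, against 8.73% of all genes tested. There the lysyl hydroxylase gene Plod2 read 7.77 and 8.25 against 9.36 and 9.08 (1.21, SE 0.22, adjusted p = 0.38), and Pcolce2, an enhancer of procollagen cleavage, had the lowest t (-0.83, SE 0.49).

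A list of 13 genes of collagen breakdown and uptake, which includes the protease inhibitors Timp1, Timp2 and Timp3, had 8 higher and 5 lower means in Twist1/p53 deletion tumours. Without the inhibitors 6 were higher and 4 lower. The median of the list was 0.17, with no call in limma among 10 tested. Of these 10, 6 had an unadjusted p under 0.05, against 20.4% of all genes tested. Mmp13, a collagenase that cuts the intact helix, read 7.91 and 9.21 against 10.73 and 11.08 (2.34, SE 0.45, adjusted p = 0.092). The gelatinase gene Mmp9 read 9.62 and 10.29 against 11.53 and 11.49 (1.56, SE 0.23, adjusted p = 0.062), and the inhibitor genes Timp1 and Timp2 were at 1.94 (SE 0.47) and 1.45 (SE 0.29). Mrc2, the receptor that takes up cleaved collagen, was lower without passing in both comparisons, by -0.87 (SE 0.23, adjusted p = 0.15) and, after Twist1 deletion, by -1.20 (SE 0.26, adjusted p = 0.44). For Twist1 alone 7 of 13 were higher, with a median of 0.05, and Timp2 had the highest t (1.14, SE 0.16, adjusted p = 0.31). None of the 12 tested members of the list was called by limma there. An unadjusted p under 0.05 was seen in 2 of them, against 8.73% of all genes tested.

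Collagen receptors had higher means in 9 of 12 measured genes after Twist1/p53 deletion (median 0.13) and in 9 of 14 after Twist1 deletion (median 0.08). None was called by limma in either comparison, with 4 of 10 and 3 of 14 tested at an unadjusted p under 0.05. Over all genes tested these shares were 20.4% and 8.73%. After Twist1/p53 deletion Antxr2, which binds collagen IV and collagen VI, read 9.64 and 9.98 against 11.12 and 10.73 (1.11, SE 0.19, adjusted p = 0.076). Itga2, the integrin chain by which keratinocytes bind collagen I, read 6.98 and 7.31 against 8.07 and 7.94. The discoidin receptor gene Ddr1 had the highest t in the Twist1 comparison, at 10.51 and 10.36 against 10.94 and 11.02 (0.54, SE 0.13, adjusted p = 0.47). The fibroblast-type receptor Ddr2 had the lowest t in both, at -0.28 and -0.27.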

How the data were processed

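The deposited tables hold 1 value per probe set and array. Their log2 scale was inferred from the deposited values, as no label or header states it, and array medians within a table were nearly equal as deposited by the authors. Summarisation and normalization software are not given in the sources used here. Names came from the annotation of each platform, using only probe sets with a single symbol. Of several probe sets of a gene, the one with the highest average level in that table was used, so 14 of the 42 collagen genes have different probe sets in the 2 tables. Genes with a mean under the 20th percentile of all probe sets (4.11 and 3.74) were not tested. Each comparison was fitted with limma 3.58.1 in R 4.3.3 (lmFit, eBayes with an intensity trend), and p-values were Benjamini-Hochberg adjusted over all genes tested. The fit was run on simulated arrays with equal spread in both groups, so it could not show how the unequal spread of the real pairs affects the calls. The difference between the deletions used genes matched by probe set, over all 8 arrays. Values per array are given for called members, for a fixed set of 19 collagens and for the members with the 5 largest changes in each direction among those whose groups did not overlap. The 9 other gene lists are described by counts, called members and the highest and lowest moderated t, and further members were chosen after their values were seen. The members and lists were chosen with earlier results of these data known. Precision is limited by the number of arrays. The level of the p53 gene is not reported here. Same-numbered arrays did not deviate together (correlations of 0.03 and -0.02 across genes), so replicate numbers were not taken as pairs.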

Additional observations from a re-analysis of the deposited data

How the results depend on the processing

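Quantile normalization, median centring, both filters, probe set averaging, no trend and a robust fit left 3 collagen genes called in the Twist1/p53 comparison and 0 in the Twist1 comparison, and the added naming, run for the former and the difference, left 3 and 0. For the difference, quantile normalization, no filter, no trend, tables scaled to the same SD and probe sets chosen in the Twist1/p53 table also left 0. Leaving out each array gave 0 to 13, 0 to 0 and 0 to 2 called members, among 0 to 3652, 0 to 58 and 10 to 144 genes. With 1 array left in a group it is assumed to vary like the other group, so these counts depend on which array is left out. With the replicate number as a block, 4 genes and 0 collagen genes were called in the Twist1/p53 comparison, 1 gene in the Twist1 comparison and 11 for the difference. In the Twist1 comparison 3 genes were called with the filter at the 50th percentile and 3 with the mean over probe sets. The median of the tested members in the Twist1/p53 comparison was -0.36 with that filter, which leaves 22 members. In the Twist1 comparison its leave-one-out range was 0.0433 to 0.16. Directions turned in several genes, among them Col4a2 and Col6a3, which had the highest and the lowest Twist1 change. With the mean over probe sets, Twist1 changes were -0.11 (Col1a2), -0.34 (Col3a1) and -0.00960 (Col18a1), and the Twist1/p53 change of Col18a1 was 0.00511. Quantile normalization gave 0.0171 for Col16a1 (Twist1) and -0.00229 for Col1a2 (Twist1/p53), and the added naming gave -2.13 for Col1a2 and -0.21 for Col20a1. Leaving out 1 array, the Twist1 change ran from -0.69 to 0.16 for Col12a1, -0.0948 to 0.0695 for Col15a1, -0.28 to 0.15 for Col16a1, -0.0229 to 0.255 for Col17a1, -0.0892 to 0.38 for Col18a1, -0.83 to 0.24 for Col1a1, -0.49 to 0.63 for Col1a2, -0.88 to 0.49 for Col23a1, -0.70 to 0.84 for Col3a1, -0.14 to 1.58 for Col4a2, -0.81 to 0.29 for Col4a5, -0.0346 to 0.32 for Col4a6, -0.32 to 0.36 for Col5a1, -0.34 to 0.32 for Col6a1, -0.35 to 0.43 for Col6a2, -1.56 to 0.42 for Col6a3, -0.55 to 0.48 for Col7a1 and -0.16 to 0.71 for Col8a1. In the Twist1/p53 comparison it ran from -0.18 to 0.86 for Col16a1, -0.19 to 0.15 for Col17a1, -0.64 to 0.41 for Col18a1, -0.0472 to 0.0522 for Col1a2, -0.74 to 0.56 for Col4a1, -0.88 to 1.19 for Col4a2, -0.22 to 0.39 for Col4a6, -0.90 to 0.15 for Col6a3 and -0.52 to 0.19 for Col7a1. For the difference it ran from -0.0930 to 0.345 for Col4a4 and -0.42 to 0.63 for Col4a5. The causes were not tested.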

Other observations

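Probe sets of one collagen gene did not always differ alike. In the Twist1 table the probe set of Col1a1 that stands for the gene differed by -0.30 with overlapping groups, while its other one read 5.59 and 5.15 in the controls, versus 5.08 and 4.46 after deletion, a difference of -0.60 without overlap. The other probe set of Col3a1 read 5.37 and 4.14 against 4.26 and 3.76 there, a difference of -0.75, beside 0.07 for the representative one. In the Twist1/p53 table the 3 probe sets of Col8a1 were higher by 0.74, 0.51 and 0.77, and the groups overlapped in 1 of them.

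The control probe sets for nonspecific hybridisation with 18 or more G and C bases, 8 in the Twist1/p53 table, read 5.95 and 6.17 on average in the controls, versus 6.58 and 6.44 after deletion, higher in both deletion arrays than in either control.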
